A study of Homo sapiens with 8 samples.

Results

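The genes described here carry a LINC symbol, a name given to long intergenic non-coding RNA genes. Their expression was measured in mouse xenografts of the established human lung cancer line H2122. They were chosen by their level alone: a LINC gene was kept when its counts per 1000000 gene counts (CPM) reached at least 1 in at least 4 of the 8 tumour libraries. This left 183 of the 1939 LINC genes listed among 59050 genes. GENCODE 29 places 173 of the 183 and types 134 as lincRNA, 18 as processed transcript and 10 as antisense. It types 7 as transcribed unprocessed pseudogene, 2 as bidirectional-promoter RNA, 1 as transcribed unitary pseudogene and 1 as protein-coding. RNA was sequenced from 4 parental tumours, labelled WT, and from 4 tumours of SMARCA4 knockout cells, labelled SMARCA4 KO. Every tumour had received vehicle only. The labels do not say whether the knockout line is 1 clone, nor that the tumours of a group came from separate animals, so p-values measure the spread between these libraries. The title of the series names immunity against tumours as its subject.

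Long intergenic non-coding RNAs are transcribed by RNA polymerase II, usually spliced and polyadenylated, and do not encode a conserved protein. A LINC symbol with a number is a placeholder given to such genes until a function is described, and few of them have one. Some act on a neighbouring gene from their site of transcription, others act elsewhere as partners of proteins or RNA, and for many the RNA may have no role of its own. The product of SMARCA4 is a motor subunit of SWI/SNF complexes, which move nucleosomes and are known to open enhancers and promoters together with sequence-specific factors such as AP-1.

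The level of SMARCA4 followed the labels. Its RNA was at 215, 230.3, 203 and 239 CPM in parental tumours 1 to 4 and at 28.8, 26.0, 22.2 and 31.3 CPM in knockout tumours 1 to 4. No knockout tumour came near a parental one, and the log2 fold change of knockout over parental was -3.02 (SE 0.109, adjusted p = 1.45e-07 by the edgeR quasi-likelihood test). Libraries held 19785922 to 23191698 gene counts. The epithelial genes EPCAM, KRT8, KRT18, KRT19, KRT7 and CDH1 were expressed in both groups. KRT19 (log2 fold change -1.01) and KRT7 (-0.71) fell, while the lung lineage factor NKX2-1 and the surfactant gene SFTPC had no count in any library. Of 20 markers of other cell types, leukocyte genes summed to 7.46 to 71.7 CPM in parental and 12.9 to 30.2 CPM in knockout tumours. Fibroblast genes summed to 184 to 613 and 342 to 602 CPM, and endothelial genes to 7.08 to 18.4 and 8.64 to 15.1 CPM. The fibroblast sum was mostly COL1A1, with a mean of 355 of 374 CPM in parental and 442 of 475 CPM in knockout tumours. Within these lists LUM rose from 0.378 ± 0.240 to 12.4 ± 2.63 CPM and VWF fell from 1.99 ± 0.845 to 0.375 ± 0.0688 CPM (SD, n = 4). CDH5 had 1 to 26 counts in each parental library and none in any knockout library. The part of these differences in the results below was not tested. The host cells of these xenografts are mouse cells, and any removal of mouse reads is not given in the sources used here. Counts of these markers may therefore come from the human tumour cells or from mouse reads, and the sums do not measure host cells. In bulk RNA, fewer cells of a type and less RNA per cell cannot be told apart.

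More expressed LINC genes were higher than lower in the SMARCA4 knockout tumours. At an adjusted p under 0.05, which is what called means here, 45 of the 183 rose (24.6%) and 15 fell (8.20%), 60 in all (32.8%). Over all 16219 genes tested the shares were 13.0% higher and 14.1% lower, 27.0% in all. Among the 14436 genes of any kind that meet the same CPM rule, 13.2% rose and 14.6% fell. Protein-coding genes under that rule leaned the other way, with 12.5% higher and 16.2% lower. The 1143 other long non-coding RNA genes under that rule leaned in the same direction as the LINC genes, with 17.0% higher and 6.12% lower. The median log2 fold change was 0.25 for the LINC genes (quartiles -0.18 and 0.66), 0.23 for other long non-coding RNA genes, 0.00 for all genes tested and -0.03 for protein-coding genes.

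**Figure D1:**
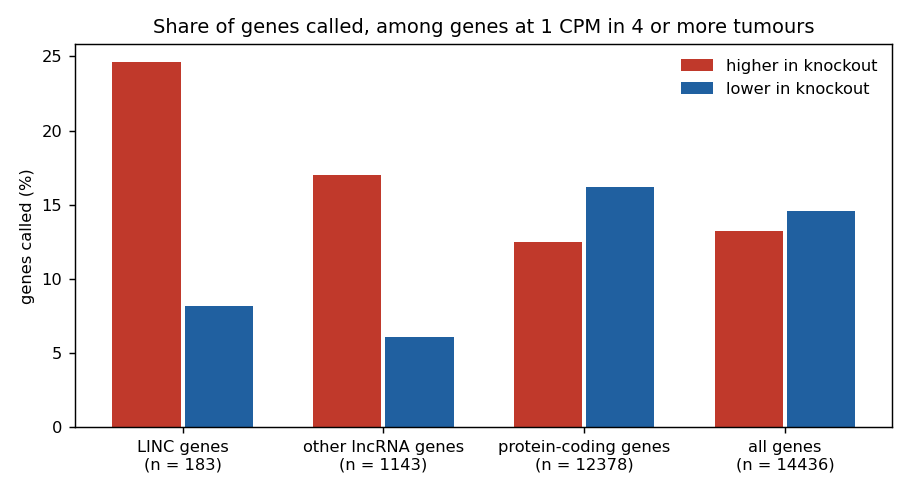
Percent of genes called higher (red) or lower (blue) in SMARCA4 knockout tumours, for 4 classes of genes at 1 CPM in 4 or more libraries; each class's number of genes is under its bars. The LINC genes show 24.6% higher and 8.20% lower, the protein-coding genes 12.5% and 16.2%.

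Changes of at least 2-fold were reached by 34 called LINC genes (18.6%), 28 of them higher and 6 lower, against 10.4% of all genes tested. The groups of 4 tumours did not overlap for 63 LINC genes (34.4%), against 29.1% of all genes tested. Of the 60 called, 55 had groups that did not overlap. Leaving out any 1 tumour kept 34 of the 45 rises and 11 of the 15 falls called, and these also stayed called in all other analyses run. The rule on expression let 5 genes in through knockout tumours alone (LINC01133, LINC01232, LINC01433, LINC01554 and LINC02616) and 2 through parental tumours alone (LINC02009 and LINC02159). Those 7 had to differ between the groups, and without the genes that miss 1 CPM in any library, 27 of 119 rose and 10 fell. No share over all genes at that stricter limit is given beside these counts.

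**Figure D2:**
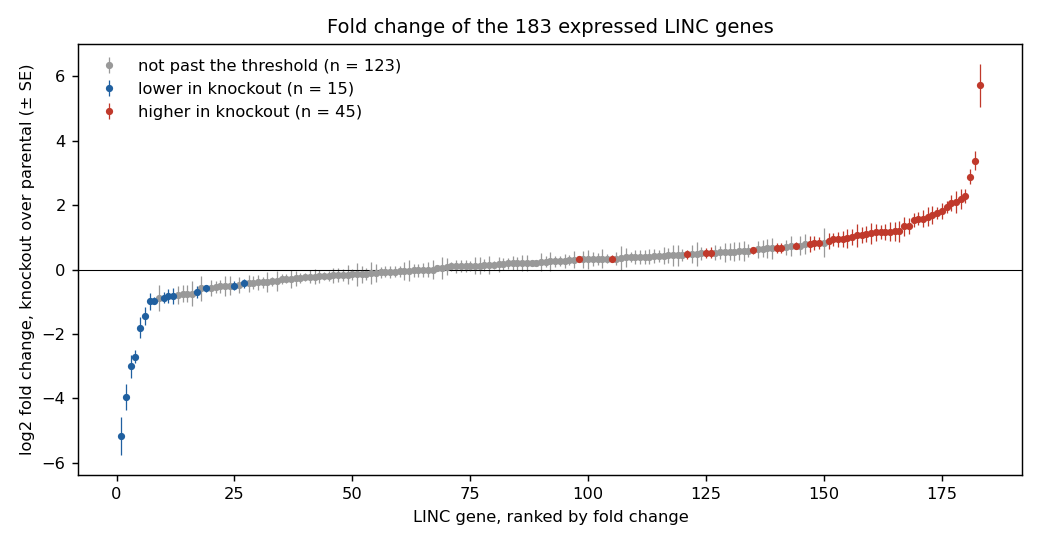
Log2 fold change of knockout over parental (± SE) for each of the 183 expressed LINC genes, ranked from the lowest to the highest. The 15 falls (blue) reach -5.17 and the 45 rises (red) reach 5.73, and 123 genes (grey) did not pass the threshold.

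The total output of these genes was nearly level. Their summed share of gene counts was 0.117% ± 0.0129 (SD, n = 4) in the parental group and 0.120% ± 0.00677 (SD, n = 4) in the knockout group, which differ by less than the spread between tumours. A median of 2.68 CPM per gene makes most of them low: 67 had a mean under 2 CPM and 26 a mean of 10 CPM or more. Among the 26, 7 rose and 6 fell, given without a share over all genes of that level. Some measures of the libraries moved with the levels of the LINC genes. Reads that the counting assigned to no feature were 6.08% to 8.76% of parental and 7.32% to 10.4% of knockout libraries (exact two-sided permutation p = 0.114). The counting options are not given in the sources used here, so such reads may also lie within genes. The highest values in each group, parental tumour 2 and knockout tumour 4, were also the tumours in which the largest numbers of LINC genes were highest. Parental tumour 2 was the highest of its group for 43.2% of the LINC genes and for 28.8% of all genes under the CPM rule, and knockout tumour 4 for 48.1% and 38.2%. The other long non-coding RNA genes under that rule were similar to the LINC genes, at 36.0% for parental tumour 2 and 50.5% for knockout tumour 4. Mitochondrial genes took 4.74% to 9.47% of gene counts in parental and 8.57% to 10.9% in knockout tumours (p = 0.0571 by the same exact permutation test). The part of these measures in the rises was not tested.

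The deepest falls were in 4 genes on chromosomes 3, 5 and 16: LINC02159, LINC02188, LINC02009 and LINC01484. The groups of LINC02159 and LINC02009 had to differ, because both met the expression limit through parental tumours alone. LINC02159 (chr5:160931778-160938626, minus strand, GRCh38) was at 5.61, 3.84, 8.78 and 8.24 CPM in parental tumours 1 to 4 and at 0.273, 0, 0.0928 and 0.329 CPM in knockout tumours 1 to 4. It was close to absent in every knockout tumour, with 15 counts against 572, a 38.3-fold difference (95% counting interval 23.0 to 68.8), and its log2 fold change was -5.17 (SE 0.592, adjusted p = 2.41e-05). Such intervals cover counting error only, because reads, not tagged molecules, were counted. LINC02009 (chr3:46416524-46423591, minus strand) was at 2.83, 4.33, 6.17 and 3.58 CPM in parental and at 0.409, 0.290, 0.464 and 0.894 CPM in knockout tumours. Each parental tumour exceeded each knockout tumour, and the log2 fold change was -3.00 (SE 0.355, adjusted p = 8.85e-05).

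LINC02159 and LINC02009 lie on different chromosomes, yet the sequences before their starts resembled each other. RefSeq gives 1 promoter window, from 250 bases before to 50 bases after the start on GRCh38.p14, for 117 of the 183 genes. Of the 6785 pairs of such windows, 10 reached a local alignment score of 40, and the next pair scored 39. Most of those at 80% identity or more join near-identical gene copies, which are LINC01106 with LINC01123, LINC01001 with LINC01002, and LINC01138, LINC01145 and LINC00869 with each other. None of these copies was called, and reads between copies may have been split or dropped. The remaining such pair was LINC02009 and LINC02159, which matched at 191 of 223 aligned bases (85.7%). Both windows held the AP-1 motif TGANTCA as TGACTCA, 175 bases before the RefSeq start of LINC02009 and 142 bases before that of LINC02159. The RefSeq start of LINC02009 lies upstream of the GENCODE 29 start in the position given above. Both windows were then aligned to all 35116 RefSeq windows, a search chosen after the falls had been seen. It found 8 windows at a score of 40 or more, these 2 included, and the best window below that scored 30. Only 3 of the 8 belong to a symbol counted in these libraries, and the third is LCAL1, a long non-coding RNA gene named for its association with lung cancer, on chromosome 6. Its window matched that of LINC02009 at 175 of 210 aligned bases (83.3%) and holds no TGANTCA. The 3 windows are printed to show the resemblance, each 5′ to 3′ on the gene's strand (minus for all 3), with TGANTCA on either strand in capitals. They span chr5:160938577-160938876 for LINC02159, chr3:46423618-46423917 for LINC02009 and chr6:79313335-79313634 for LCAL1.
LINC02159: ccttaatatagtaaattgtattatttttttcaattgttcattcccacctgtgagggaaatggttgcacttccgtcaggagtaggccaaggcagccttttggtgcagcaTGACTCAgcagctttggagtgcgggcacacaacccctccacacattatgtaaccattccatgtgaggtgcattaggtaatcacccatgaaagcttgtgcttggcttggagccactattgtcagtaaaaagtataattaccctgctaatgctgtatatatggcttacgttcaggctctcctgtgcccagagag
LINC02009: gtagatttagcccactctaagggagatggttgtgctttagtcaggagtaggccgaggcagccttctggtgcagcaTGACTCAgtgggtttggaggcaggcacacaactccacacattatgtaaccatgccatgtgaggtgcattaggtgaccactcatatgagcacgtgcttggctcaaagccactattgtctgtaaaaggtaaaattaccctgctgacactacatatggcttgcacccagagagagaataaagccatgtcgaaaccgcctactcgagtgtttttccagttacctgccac
LCAL1: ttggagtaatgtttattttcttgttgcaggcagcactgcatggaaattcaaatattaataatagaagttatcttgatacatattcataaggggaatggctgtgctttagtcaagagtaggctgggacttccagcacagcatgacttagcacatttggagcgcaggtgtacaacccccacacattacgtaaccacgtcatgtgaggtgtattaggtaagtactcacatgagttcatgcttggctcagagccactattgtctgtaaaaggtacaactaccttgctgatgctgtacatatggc

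LCAL1 was at 99.6, 94.7, 129 and 98.4 CPM in parental tumours 1 to 4 and at 12.9, 18.1, 16.6 and 24.1 CPM in knockout tumours 1 to 4. The lowest parental tumour was well above the highest knockout tumour, and the log2 fold change was -2.54 (SE 0.162, adjusted p = 2.10e-06). LINC02159 and LINC02009 met the expression limit through parental tumours alone and their falls prompted the search. LCAL1 is the only gene of the 3 whose fall was not used to choose it. It is a single gene, and 14.1% of all genes tested fell. Whether the resemblance of the windows has a part in its fall was not tested. The AP-1 motif TGANTCA, searched on both strands, is in 7.71% of all RefSeq windows, in 13 of the 117 LINC windows (11.1%), in 3 of the 10 windows of genes that fell and in 2 of the 29 windows of genes that rose. The 3 windows among the falls are not independent. Those of LINC02159 and LINC02009 hold the motif within the stretch in which they resemble each other, and the third is that of LINC00346. These shares were not tested. A match of letters describes the window and does not show that a factor binds it.

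**Figure D3:**
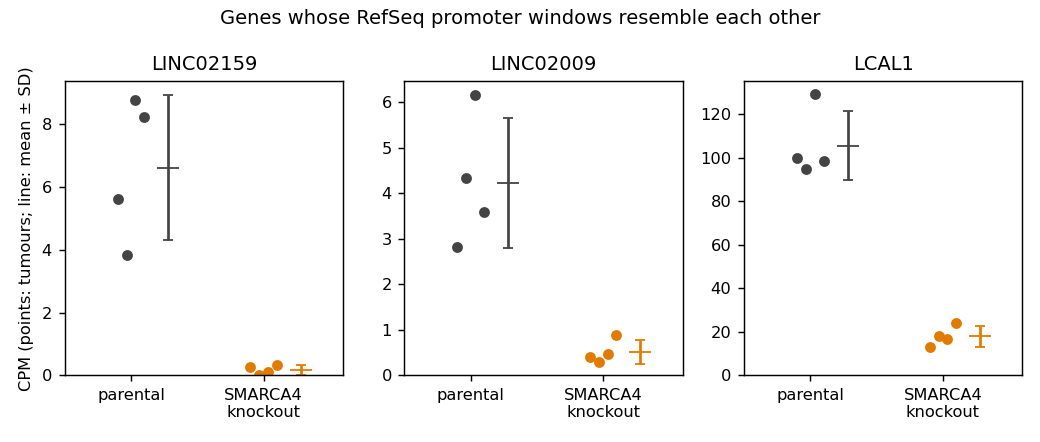
CPM of LINC02159, LINC02009 and LCAL1 in each tumour (points) with the group mean ± SD beside them, on linear axes from 0. For LCAL1 the knockout tumours (orange) reach 24.1 CPM and the parental tumours (grey) start at 94.7 CPM; LINC02159 and LINC02009 met the expression limit through parental tumours alone, so their groups had to differ.

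The other large falls were in 4 genes. The windows of LINC02188 and LINC00323 resembled no other LINC window at a score of 40. LINC01484 and LINC00858 have no unique RefSeq window and could not be compared. LINC02188 (chr16:86710122-86742083, plus strand) was at 32.8, 15.5, 68.5 and 57.1 CPM in parental and at 2.09, 3.24, 3.11 and 2.63 CPM in knockout tumours. The parental tumours varied more than 4-fold among themselves and parental tumour 2 was the lowest, but all stood above the knockout tumours (log2 fold change -3.95, SE 0.400, adjusted p = 4.23e-05). LINC01484 (chr5:173707614-173746211, minus strand) was at 23.4, 18.8, 23.4 and 24.2 CPM in parental and at 4.0, 2.66, 2.23 and 4.75 CPM in knockout tumours. Its parental values were tight apart from tumour 2, and its log2 fold change was -2.70 (SE 0.207, adjusted p = 6.49e-06). LINC00858 on chromosome 10 fell from 2.46 ± 0.707 to 0.687 ± 0.242 CPM and LINC00323 on chromosome 21 from 2.65 ± 0.418 to 0.963 ± 0.322 CPM (SD, n = 4), with log2 fold changes of -1.81 and -1.44.

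The remaining named falls were smaller than those 6. LINC00942, the gene with the highest level per length in parental tumours, was at 109, 83.6, 114 and 121 CPM in parental and at 52.5, 54.1, 53.5 and 55.8 CPM in knockout tumours. The knockout tumours lay within a narrow band below all parental ones (log2 fold change -0.96, SE 0.108, adjusted p = 7.25e-05). LINC00899, LINC02542 and LINC00346 had log2 fold changes of -0.99, -0.87 and -0.83, each with groups that did not overlap. LINC00346, now called PRECSIT, is regulated by p53 and has been described to act on STAT3 signalling in carcinoma cells. LINC00342 had a log2 fold change of -0.81 (adjusted p = 0.0310), but its groups overlapped and its call was lost without parental tumour 2 or 3 and without knockout tumour 1, 2 or 3. Without parental tumour 3 the value was -0.58. LINC02562 had a log2 fold change of -0.70 (adjusted p = 0.0203) and lost its call without knockout tumour 1 or without knockout tumour 2.

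**Figure D4:**
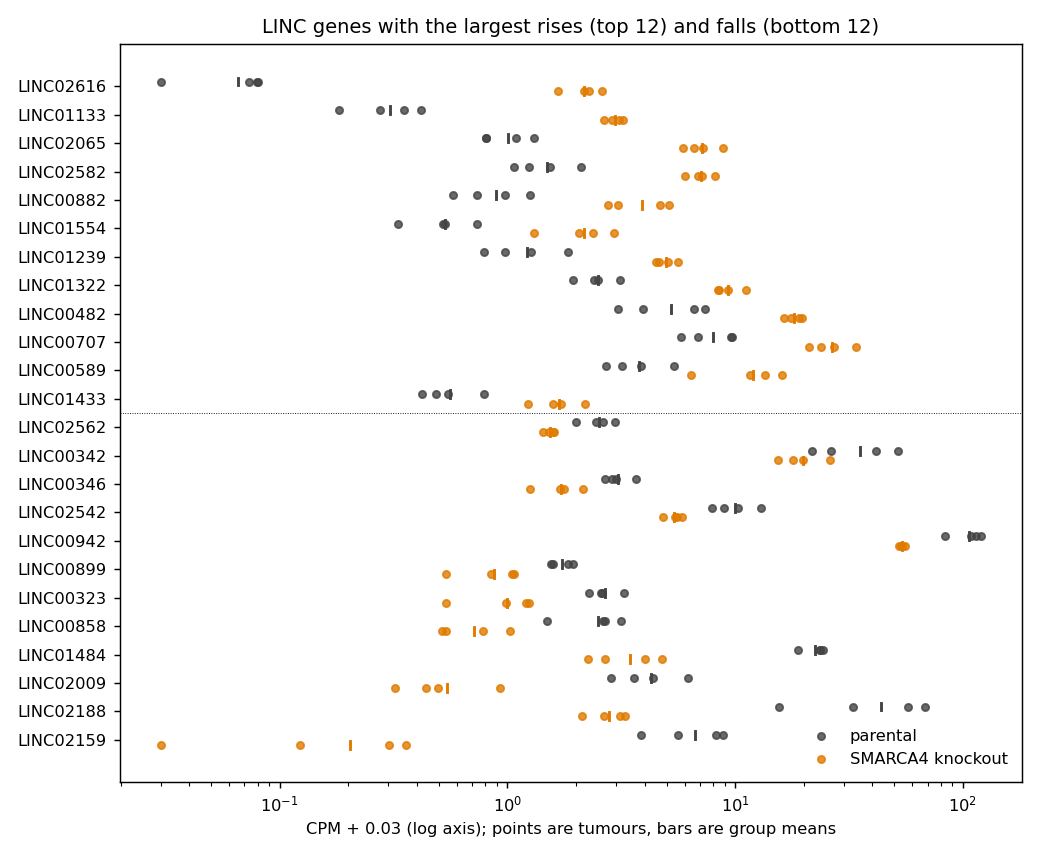
CPM plus 0.03 on a log axis for the LINC genes with the 12 largest rises (above the dotted line) and the 12 largest falls (below it), with 1 point per tumour, parental in grey and knockout in orange, and bars at the group means. Groups overlap only for LINC00342 among the 24.

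Among the rises, LINC02616 and LINC01133 went from near 0 to a few CPM. Both met the expression limit through knockout tumours alone, so their groups had to differ. LINC02616 on chromosome 4 was at 0.0505, 0.0492, 0 and 0.0431 CPM in parental and at 1.64, 2.57, 2.13 and 2.26 CPM in knockout tumours. Its parental libraries held 3 counts in all against 183, so its size rests on very few reads: the ratio was 60.8 with a 95% counting interval of 20.5 to 298 (edgeR adjusted p = 4.10e-06). LINC01133 (chr1:159961218-159984750, plus strand), an RNA described to bind the splicing factor SRSF6, was at 0.152, 0.246, 0.320 and 0.388 CPM in parental and at 2.64, 2.86, 3.20 and 3.06 CPM in knockout tumours. All knockout tumours agreed within a narrow range, and the log2 fold change was 3.39 (SE 0.288, adjusted p = 7.34e-06).

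LINC02065 (chr5:66206212-66209447, minus strand) was at 1.06, 1.28, 0.777 and 0.776 CPM in parental and at 8.83, 7.21, 5.84 and 6.54 CPM in knockout tumours. Every knockout tumour was several-fold above every parental one (log2 fold change 2.89, SE 0.228, adjusted p = 6.68e-06). Its promoter window is shown with that of LINC01133 because they are the largest rises with a RefSeq window, and capitals mark GGAATG, the core motif of TEAD factors. The windows span chr1:159960974-159961273 on the plus strand and chr5:66209397-66209696 on the minus strand. GGAATG, searched on both strands, is in 14.0% of all RefSeq windows and in 4 of the 29 windows of LINC genes that rose (13.8%).
LINC01133: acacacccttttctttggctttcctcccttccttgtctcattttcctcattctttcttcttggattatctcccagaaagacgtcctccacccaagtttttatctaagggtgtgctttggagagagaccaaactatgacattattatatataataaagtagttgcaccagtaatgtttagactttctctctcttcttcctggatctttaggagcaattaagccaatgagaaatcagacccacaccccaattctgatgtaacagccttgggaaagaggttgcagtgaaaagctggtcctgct
LINC02065: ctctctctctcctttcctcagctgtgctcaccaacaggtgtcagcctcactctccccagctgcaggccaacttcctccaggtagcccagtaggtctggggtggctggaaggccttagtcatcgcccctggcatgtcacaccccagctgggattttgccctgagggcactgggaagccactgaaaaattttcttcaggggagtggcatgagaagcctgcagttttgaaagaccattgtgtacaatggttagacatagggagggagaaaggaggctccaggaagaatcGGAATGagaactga

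Neither window is rich in CpG, with 1 and 2 CpG dinucleotides. Windows that are CpG-rich (an observed-to-expected ratio of at least 0.6 and at least 50% G and C) made up 8 of the 29 of LINC genes that rose (27.6%), 4 of the 10 of genes that fell, 39 of the 78 of genes not called and 46.9% of all RefSeq windows. The sequence TATAAA was in 6 of the 29 windows of genes that rose (20.7%), in none of the 10 of genes that fell and in 11.5% of all windows. These shares describe the windows at hand and were not tested.

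A further set of rises lay between 3-fold and 5-fold. LINC02582 rose from 1.46 ± 0.451 to 7.05 ± 0.874 CPM and LINC00882 from 0.859 ± 0.297 to 3.87 ± 1.17 CPM (SD, n = 4), with log2 fold changes of 2.30 and 2.19. LINC01554, LINC01239, LINC01322 and LINC00482 had log2 fold changes of 2.11, 2.07, 1.94 and 1.82. LINC00707 on chromosome 10 was at 9.60, 5.75, 6.81 and 9.70 CPM in parental and at 21.1, 23.9, 27.2 and 34.1 CPM in knockout tumours. Its groups were far apart, with the highest value in knockout tumour 4 (log2 fold change 1.75, SE 0.193, adjusted p = 6.95e-05). LINC00589 and LINC01433 followed at 1.69 and 1.64. LINC01232, like LINC01554 and LINC01433, met the rule through knockout tumours alone. LINC01232 rose less, from 0.772 ± 0.238 to 1.94 ± 0.411 CPM (SD, n = 4, log2 fold change 1.35), and it shares exonic bases with the coding gene TM9SF2.

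Of the 8 LINC genes with the most counts, 4 fell (LINC00942 and LINC00342 above, LINC01184 and LINC00511), 1 rose (LINC00667) and 3 were not called. A share over all genes of such a level is not given beside these 8. LINC00963, with the most counts of all, was at 140.2, 215, 213 and 112 CPM in parental and at 185, 199.7, 186 and 187 CPM in knockout tumours. The parental tumours spread on both sides of the knockout tumours, and the difference was within that spread (log2 fold change 0.18, SE 0.178, adjusted p = 0.509). LINC00205, which shares a bidirectional promoter with POFUT2, had a log2 fold change of 0.15 (adjusted p = 0.382). LINC01578, now called CHASERR and known to restrain its neighbour CHD2 in cis, had a log2 fold change of 0.21 (adjusted p = 0.119), with overlapping groups. LINC01184, now SLC12A2-DT because it starts beside a gene of an ion cotransporter, fell from 35.0 ± 3.85 to 23.0 ± 2.12 CPM (SD, n = 4, log2 fold change -0.58, adjusted p = 0.00133). It shares exonic bases with CCDC192, and the strand setting of the counting is not given in the sources used here, so reads of genes that overlap on opposite strands cannot be told apart.

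LINC00511 and LINC00667 were called by a narrow margin. LINC00511, an RNA often reported as raised in cancers, was at 25.3, 41.0, 39.5 and 28.4 CPM in parental and at 20.6, 23.3, 25.7 and 24.2 CPM in knockout tumours. Parental tumours 2 and 3 carried most of the difference: the groups overlapped (log2 fold change -0.49, adjusted p = 0.0288) and the call was lost without either of these, or without knockout tumour 1, 2 or 4. LINC00667 rose from 24.1 ± 2.29 to 29.7 ± 1.63 CPM (SD, n = 4, log2 fold change 0.32, adjusted p = 0.0246), and its call was lost without parental tumour 1 or 2 or knockout tumour 2. Per length of exon, known for 173 of the genes from GENCODE 29, LINC00942 was the highest in parental tumours at 48.3 RPKM (counts per 1000000, divided by the exon length in kilobases), against 24.4 in knockout tumours. LINC00342 at 13.5, LINC00963 at 12.9 and LINC02542 at 12.2 RPKM came next. Of the 12 highest by this measure in parental tumours, 5 fell and 2 rose. Ranking by the parental level favours genes that fell, so no lean is read from these counts. The risers were LINC00857, from 5.82 to 8.68 RPKM, and LINC01137, from 8.80 to 14.5 RPKM. LINC01137 is now called LITATS1 and has been described to dampen TGF-beta signalling. Both these genes were singled out after their values had been seen.

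Some of the called LINC genes moved with their neighbouring protein-coding gene. A tested nearest coding gene was available for 139 of the 183, as 133 different genes, of which 24 rose and 23 fell (35.3% called, against 27.0% of all genes tested and 28.6% of protein-coding genes under the CPM rule). Both partners rose in 12 pairs and both fell in 5, while a LINC gene rose beside a coding gene that fell in 2 pairs and the reverse was not seen. Called or not, the partners shared the sign of their fold change in 77 of the 139 pairs, in 24 of the 36 with a LINC gene that rose, in 9 of the 11 with one that fell and in 44 of the 92 with one not called. Across the 139 pairs the fold changes had a Pearson r of 0.60 and a Spearman rho of 0.34, given as a description across genes, which are not independent and share the same 8 libraries. Over the 92 pairs with a LINC gene not called, r was 0.16 and rho 0.14. Among the 59 pairs at most 10 kb apart, 28.8% of neighbours were called and 31 pairs shared the sign, against 46 of the 80 farther apart. In 37 of these 59 close pairs the LINC gene shares no exonic bases with another gene. Of those 37, 16 shared the sign, 24.3% of neighbours were called, and both partners rose in 3 and fell in 1. The differences between these shares were not tested.

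The pairs with the deepest falls were LINC02159 with ATP10B and LINC02009 with CCRL2. ATP10B, which encodes a lipid-transporting P-type ATPase and lies 79564 bp away, fell from 55.6 ± 22.5 to 0.705 ± 0.279 CPM (SD, n = 4, log2 fold change -6.27, SE 0.378, adjusted p = 6.60e-07). CCRL2, an atypical chemokine receptor gene 3527 bp from LINC02009, fell from 1.84 ± 0.452 to 0.306 ± 0.0873 CPM (log2 fold change -2.55, SE 0.316, adjusted p = 0.000104). PARM1, which encodes a mucin-like membrane protein, lies beside LINC02562 and fell more than it did, at -2.24 against -0.70 on the log2 scale. BACE2, an aspartic protease gene beside LINC00323, had a log2 fold change of -0.72, and ANKRD36C beside LINC00342 had -0.92. ANKRD36C has near-identical paralogs, so its count is uncertain, and its call was lost without parental tumour 3 or knockout tumour 1, 2 or 3.

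On the rising side, SMOX, the spermine oxidase gene beside LINC01433, went from 131.9 ± 11.1 to 252 ± 8.37 CPM (SD, n = 4, log2 fold change 0.95, SE 0.0807, adjusted p = 1.08e-05). PRKCQ, which encodes protein kinase C theta, lies beside LINC00707 (log2 fold change 0.55), and DMRTA1, a DM-domain factor gene, beside LINC01239 (0.66, not called without knockout tumour 2). SLAMF9 beside LINC01133 had 0.86, with overlapping groups and no call without parental tumour 1 or 3 or knockout tumour 1 or 3. Chosen after their values were seen, NTSR1, the neurotensin receptor gene beside LINC00659, rose by 2.86 on the log2 scale and BAMBI, a decoy receptor gene of TGF-beta signalling beside LINC01517, by 1.16. The 2 coding genes that fell beside a LINC gene that rose were ANXA11 beside LINC00857 (-0.28) and DUSP10 beside LINC02474 (-0.78), named for the same reason.

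**Figure D5:**
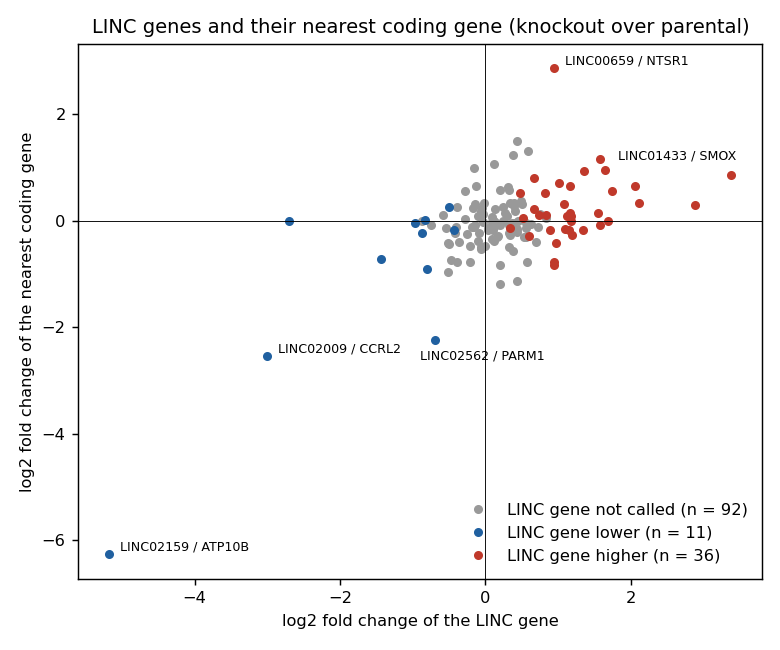
Log2 fold change (knockout over parental) of each of 139 LINC genes (x axis) against that of its nearest tested coding gene (y axis); red, blue and grey mark LINC genes that rose, fell or were not called. Of the 11 LINC genes that fell, 9 have a neighbour on the same side of 0, against 77 of all 139 and 44 of the 92 not called, and LINC02159 with ATP10B lies farthest out.

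Chromosome 14 held more of the rises than any other chromosome, a pattern noticed in the data and not tested. Of its 13 expressed LINC genes, 8 rose and none fell, with a median log2 fold change of 0.90, whereas 14.4% of all tested genes of chromosome 14 rose and 11.6% fell. The 8 were LINC00239, LINC00520, LINC00641, LINC02293, LINC02298, LINC02320, LINC02323 and LINC02588, with log2 fold changes of 0.52 for LINC00641 to 1.55 for LINC00239, and 5 of them stayed called whichever tumour was left out. The other 3, LINC00520, LINC00641 and LINC02588, each lost the call without parental tumour 1 and without others. They include both pairs of LINC genes within 100 kb in which both partners rose. One is LINC02588, now NOVA1-DT, with LINC02293, 2950 bp apart, and the other LINC02320 with LINC00239, which overlap. Chromosome 2 also holds 13 expressed LINC genes, of which none rose and only LINC00342 fell, beside 11.4% higher and 14.8% lower among all its tested genes, and 10 of the 13 had a fold change below 0.

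Among long non-coding RNA genes with names of their own, 49 of 62 listed genes could be tested. Of these, 11 were called (22.4%, below the 27.0% of all genes tested), 6 higher and 5 lower. Their median log2 fold change was 0.20. The imprinted H19 fell from 26.2 ± 8.17 to 3.54 ± 1.88 CPM and UCA1 from 34.7 ± 3.76 to 5.44 ± 0.622 CPM (SD, n = 4), with log2 fold changes of -2.88 and -2.65. CRNDE (-2.78), SNHG18 (-2.31) and MIAT (-1.44) also fell. TINCR, an RNA of epidermal differentiation, rose by 2.08 and LUCAT1 by 1.25 on the log2 scale, both called whichever tumour was left out. MIR31HG (0.41), TUG1 (0.32) and the snoRNA host GAS5 (0.31) rose less, and each lost its call without parental tumour 1 or knockout tumour 1. GAS5 also lost it without parental tumour 2 or 3, TUG1 without knockout tumour 2, and MIR31HG without parental tumour 3 or knockout tumour 3 or 4. The sixth rise, SNHG6, had 0.27 and was called without parental tumour 2 or 3 only.

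Some further calls rested on single tumours. LINC00926 had a log2 fold change of 1.20 (adjusted p = 0.0184) and was called in 6 of the 8 fits without 1 tumour, losing its call without parental tumour 1 or without knockout tumour 4. LINC02588 (0.90) stayed called only without parental tumour 2 or knockout tumour 2 or 3. LINC00294 (0.48) lost its call without tumour 1 or tumour 3 of either group, and LINC00520 (1.12) stayed called only without parental tumour 2 or knockout tumour 4. LINC00294 shares exonic bases with CSTF3, and 61 of the 183 genes share such bases with another gene, 16 of the called ones among them. The widest relative spread within a group was found in LINC02159, LINC02616, LINC01126 and LINC01697. For LINC02159 and LINC02616 it was in the group near 0, with only 15 counts over the knockout and 3 over the parental libraries. LINC01126 was at 0.505, 0.885, 1.69 and 0.345 CPM in parental tumours, and LINC01697 at 1.21, 1.13, 3.75 and 2.63 CPM. Parental tumour 3 was the highest in both, and neither was called (adjusted p = 0.184 and 0.130).

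Near the expression limit of 1 CPM, the fourth highest value was 1.00 CPM for LINC02043 and 1.01 CPM for both LINC01410 and LINC02657, now called LASTR, which were kept. It was 0.955 CPM for LINC02015 and 0.949 CPM for both LINC01004 and LINC01121, which were not. A further 65 LINC genes below the rule could be tested, of which 9 rose (13.8%) and 7 fell (10.8%). Over all genes tested these shares were 13.0% and 14.1%.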

How the data were processed

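RNA was measured in 8 xenograft tumours, and groups and replicate numbers came from the sample titles. The values are raw counts per gene symbol, deposited by the authors as 1 file per tumour in the layout of htseq-count. The submitters' processing notes name TopHat2 2.1.1, HTSeq 0.11.0 and hg38. The annotation, the counting options, the strand setting and any removal of mouse reads are not given in the sources used here. Lines that name no gene (5 per file) were left out of library sizes.

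CPM is the count divided by the gene total of the library. The groups were compared in edgeR 4.0.16 (R 4.3.3) by its quasi-likelihood F-test, with TMM scaling and filterByExpr (minimum count 10, minimum total 15). P-values were adjusted by Benjamini-Hochberg over 16219 genes, and standard errors come from the fitted model. The fit was tested on simulated data. For single values, exact permutation tests (two-sided) over the 4 and 4 tumours were used, which cannot go below p = 0.0286. Positions are from GENCODE 29 for 173 genes and RefSeq for 10, both on GRCh38, and promoter windows and their sequences from RefSeq (GRCh38.p14), aligned with Biopython 1.88. Every pair of libraries differed by more than sampling noise.

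The members, the gene lists and the tests were chosen with earlier results of these data known. Genes were named by a rule: SMARCA4, the 12 largest called rises and falls, the 8 genes with the most counts, genes that met the limit in 1 group alone, genes just inside and outside the limit, up to 6 calls that depend on 1 tumour, the 4 widest spreads, called coding neighbours of the largest changes, and the 5 largest called changes each way in the list of other long non-coding RNAs. Other analyses were DESeq2 1.42.0, limma-voom (limma 3.58.1), other scalings and filters, a replicate block, other expression limits and leaving out each tumour.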

Additional observations from a re-analysis of the deposited data

Results flagged for a closer look

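A single tumour stood apart from the other 3 of its group in 5 of the 80 groups of CPM values examined, where chance alone flags about 1 in 20. LINC02616 was at 0 CPM in parental tumour 3, against 0.0431 to 0.0505 CPM in the other parental tumours, which is a difference of 1 count. LINC01484 was at 18.8 CPM in parental tumour 2, the lowest of its group, against 23.4 to 24.2 CPM. LINC00963 was at 199.7 CPM in knockout tumour 2, the highest of its group, against 185 to 187 CPM. LINC00926 was at 4.33 CPM in knockout tumour 4, against 2.13 to 2.37 CPM, and LINC02588 at 3.64 CPM in parental tumour 2, against 1.72 to 1.81 CPM.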

How the results depend on the processing

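The number of expressed LINC genes called was 56 to 65 with DESeq2, limma-voom, other scalings and other filters, against 60. Leaving out 1 tumour gave 49 to 65 called LINC genes, 35 to 50 higher and 11 to 16 lower, 3501 to 4721 called among all genes, 8 to 15 in the list of other long non-coding RNAs, 38 to 49 coding neighbours and -3.08 to -2.93 for SMARCA4 (log2). Requiring 1 CPM in all 8 libraries left 119 genes, of which 37 were called and 27 rose. Fewer genes qualify by construction, and a share over all genes at that limit is not given. Same-numbered tumours did not deviate together more than others, with r from -0.19 to 0.09 against -0.18 to 0.25 for tumours of different number. So few values cannot exclude a weak pairing. With the replicate number as a block 50 LINC genes were called, 38 higher and 12 lower, and all genes changed numbered 3871. Among single genes, 916 of the values under other settings kept their direction and side of the threshold, 65 lost the call, 5 gained it and 2 reversed. Both reversals were in LINC01004 (0.36 without knockout tumour 3, its highest value), at -0.06 without parental tumour 1 and -0.22 without knockout tumour 4, and the cause was not tested. Of the 183 genes, 67 had a mean under 2 CPM, and the effect of depth on their calls was not tested.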
